A study of Mus musculus with 2 samples.

Results

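The genes that write, copy and remove DNA methylation were followed in immune cells of mouse liver tumors: the methyltransferases Dnmt1, Dnmt3a and Dnmt3b, the DNMT1 partner Uhrf1, and the dioxygenases Tet1, Tet2 and Tet3. These 7 of the 32285 genes counted were chosen by name when earlier results of the same libraries were already known, and cells were assigned to types and states on their own counts, so all values are descriptions and no test was run. Each of the 2 libraries, 1 per condition, held CD45+ cells taken alive from liver tumors that were resistant to lenvatinib and carried Trp53 loss and MYC overexpression. The tumors were grown in male wild-type C57BL/6 J mice of 6 to 8 weeks, after plasmids carrying human MYC and a Cas9 guide against Trp53 had been delivered to hepatocytes by hydrodynamic injection with the Sleeping Beauty transposase. Both groups began lenvatinib, a multikinase inhibitor, at 30 mg/kg 12 days after injection and had 25 days of it before the comparison. The lenvatinib group then stayed on lenvatinib, and the combo group received lenvatinib at 30 mg/kg with the CDK4/6 inhibitor palbociclib at 100 mg/kg. The number of mice behind each library was not stated, and neither library came from untreated or palbociclib-only mice.

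Methylation of cytosine in CpG pairs is set by DNMT3A and DNMT3B and is lost by dilution at each round of DNA replication unless it is copied. UHRF1 binds the half-methylated CpG left behind the replication fork and brings DNMT1 to it, and both genes are known for higher expression in dividing cells. TET enzymes oxidize methylated cytosine as the first step of its removal. In immune cells DNMT3A is known for closing the genes of earlier states as T cells differentiate, and TET2 for its role in myeloid cells. CDK4/6 act before S phase by phosphorylating RB, which releases E2F factors.

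The promoters of the 7 genes are shown first, because an E2F-like motif separated the gene pair that copies methylation from the other 5. In mm10 with the GENCODE M21 annotation, Dnmt1 lies at chr9:20907209-20959888, Uhrf1 at chr17:56303321-56323486, Dnmt3a at chr12:3806007-3914443 and Dnmt3b at chr2:153649450-153687730. Tet1 lies at chr10:62804570-62908996, Tet2 at chr3:133463679-133545139 and Tet3 at chr6:83362373-83459084. On the same strand, Mir7081 overlaps Dnmt1, Gm26479 and Gm48353 overlap Tet1, and 5430434F05Rik and Mir6374 overlap Tet3. The part of these overlaps in the counts was not tested. RefSeq windows of 250 bases before to 50 bases after each start (GRCm38.p6) were found for all 7 genes. The motifs TTTCGCGC, TTTGGCGC, TTTCCCGC and TTTGCCGC were searched on both strands, and at least 1 of them was present in 2.27% of 32851 windows and in 2.60% of 27025 genes. The motifs hold CG themselves, and the windows differ in CpG content, with a median of 7 CpG per window over all and 33 in each of the windows of Dnmt1 and Uhrf1 that held a match. The CpG-richest window among the members, that of Tet2 with 57, held none. Matches were found in the windows of Dnmt1 and Uhrf1, and none of the 4 motifs was in the windows of Dnmt3a, Dnmt3b, Tet1, Tet2 or Tet3. The upstream part of the matching Uhrf1 window is printed whole, and the Dnmt1 matches, which lie in annotated 5′ UTR exons, with a few bases on each side. Capitals mark the motif, which reads on the opposite strand in the first Dnmt1 stretch.
Uhrf1, chr17:56304063-56304312, plus strand: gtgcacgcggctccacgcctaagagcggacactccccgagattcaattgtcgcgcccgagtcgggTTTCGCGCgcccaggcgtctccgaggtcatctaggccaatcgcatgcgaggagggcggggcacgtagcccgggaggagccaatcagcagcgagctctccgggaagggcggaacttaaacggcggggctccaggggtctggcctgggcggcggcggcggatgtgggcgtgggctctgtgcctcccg
Dnmt1, chr9:20952824-20952853, minus strand: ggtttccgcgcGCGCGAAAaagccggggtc
Dnmt1, chr9:20952574-20952601, minus strand: gcggggcagcgTTTGGCGCgggctgtgc
The Uhrf1 motif began 185 bases before one of the gene's 2 starts and lay in an intron of transcripts from the other, and the Dnmt1 motifs began 219 bases before and 34 bases after one of its 3 starts. TTTCGCGC alone was present in 0.323% of windows. A motif match is a description of these letters and was not tied to binding, and no binding or methylation data were used here. A motif was also held by 4 of 6 maintenance partners described below (Hells, Cdca7, Pclaf and Lig1), by 4 of the 9 S-phase genes with a window and by 1 of 9 mitosis genes, and by none of the 5 methyl-CpG readers with a window. The motifs were chosen when the cycling values were already known.

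The lenvatinib library held 98107503 UMIs in 14509 barcodes and the combo library 93583402 UMIs in 11989 barcodes, and 49 barcode sequences occurred in both. Cells with at most 6000 genes and at most 25% mitochondrial UMIs were kept, 14201 under lenvatinib and 11613 under combo, and Ptprc, which encodes CD45, had a UMI in 95.4% of them in each library. A cell was gated when exactly 1 of 6 genes had a UMI: Cd3e (T), Ncr1 (NK), Cd79a (B), Csf1r (monocyte/macrophage, Mo/Mac), Csf3r (neutrophil) or Flt3 (dendritic). The gates held, under lenvatinib and combo, 5173 and 3795 T, 2509 and 981 NK, 535 and 604 B, 192 and 432 Mo/Mac, 681 and 1468 neutrophil and 249 and 217 dendritic cells. Cells with UMIs of several gate genes (2327 and 2667) or of none (2535 and 1449) were given no type. Under combo the cells with several held 33.7% of all UMIs, 35.9% of the Dnmt1 UMIs and 41.0% of the Uhrf1 UMIs. The values by type therefore leave out a large part of each library. The markers Cd3d, Klrb1c, Cd79b, Lyz2 (Mo/Mac) and S100a8 were highest in their own gate in both libraries. The dendritic gate was mixed. Siglech, a gene of plasmacytoid dendritic cells, had a UMI in 59.8% of its cells under lenvatinib and in 62.7% under combo. Levels are given as CPM (the gene's UMIs scaled to the UMI total of the class). The dendritic marker Zbtb46 was highest in the dendritic gate, at 31.4 CPM under lenvatinib and 15.4 CPM under combo. The dendritic marker Itgax was higher in the NK gate (159 and 94.1 CPM) than in the dendritic gate (106 and 65.15 CPM). RNA of neutrophils was widespread in the combo library, where S100a8 stood at 1552 CPM in T-gated cells, against 205 CPM under lenvatinib. Ribosomal protein genes took a median of 25.3% of UMIs per T-gated cell under lenvatinib and 30.1% under combo, and mitochondrial genes 4.84% and 3.90%. Cd3d, at 670 and 722 CPM in T-gated cells, stood at 12.7 to 51.7 CPM in the other 5 gates. Free RNA, mis-gated cells and RNA made by the gated cells themselves were not told apart in that level. The part of these differences in the values below was not tested.

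Across all kept cells, each of the 7 genes had a lower CPM in the combo library. Values are CPM of counts summed over the class with exact Poisson 95% intervals, a ratio carries the range from setting the interval ends against each other, and both cover counting error only. Dnmt1 stood at 74.0 CPM under lenvatinib and 43.8 CPM under combo (ratio 0.593, range 0.561 to 0.626), and Uhrf1 at 42.2 and 17.2 CPM (0.406, 0.375 to 0.441). Dnmt3a stood at 47.0 and 19.5 CPM (0.414, 0.384 to 0.447), and Dnmt3b, from 853 and 376 UMIs, at 8.97 and 4.17 CPM (0.465, 0.392 to 0.551). The dioxygenase genes were uneven: Tet3 stood at 67.1 and 39.3 CPM (0.586, 0.553 to 0.621) and Tet2 at 68.2 and 59.7 CPM (0.876, 0.832 to 0.922). Tet1 was sparse, with 344 and 159 UMIs in all (0.488, 0.373 to 0.635). Of the 7 genes 6 were at least 1.5-fold lower, a class that held 21.4% of the 14623 genes with at least 50 UMIs. The median of these genes was itself 0.858, and against it Tet2 turned to 1.02 while the other 6 genes kept ratios of 0.474 to 0.691, of which 4 were still at least 1.5-fold lower and those of Dnmt1 and Tet3 were not. In a bulk sum of this kind fewer cells of a type and less RNA per cell cannot be told apart, so the same genes were read within gated types.

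**Figure D1:**
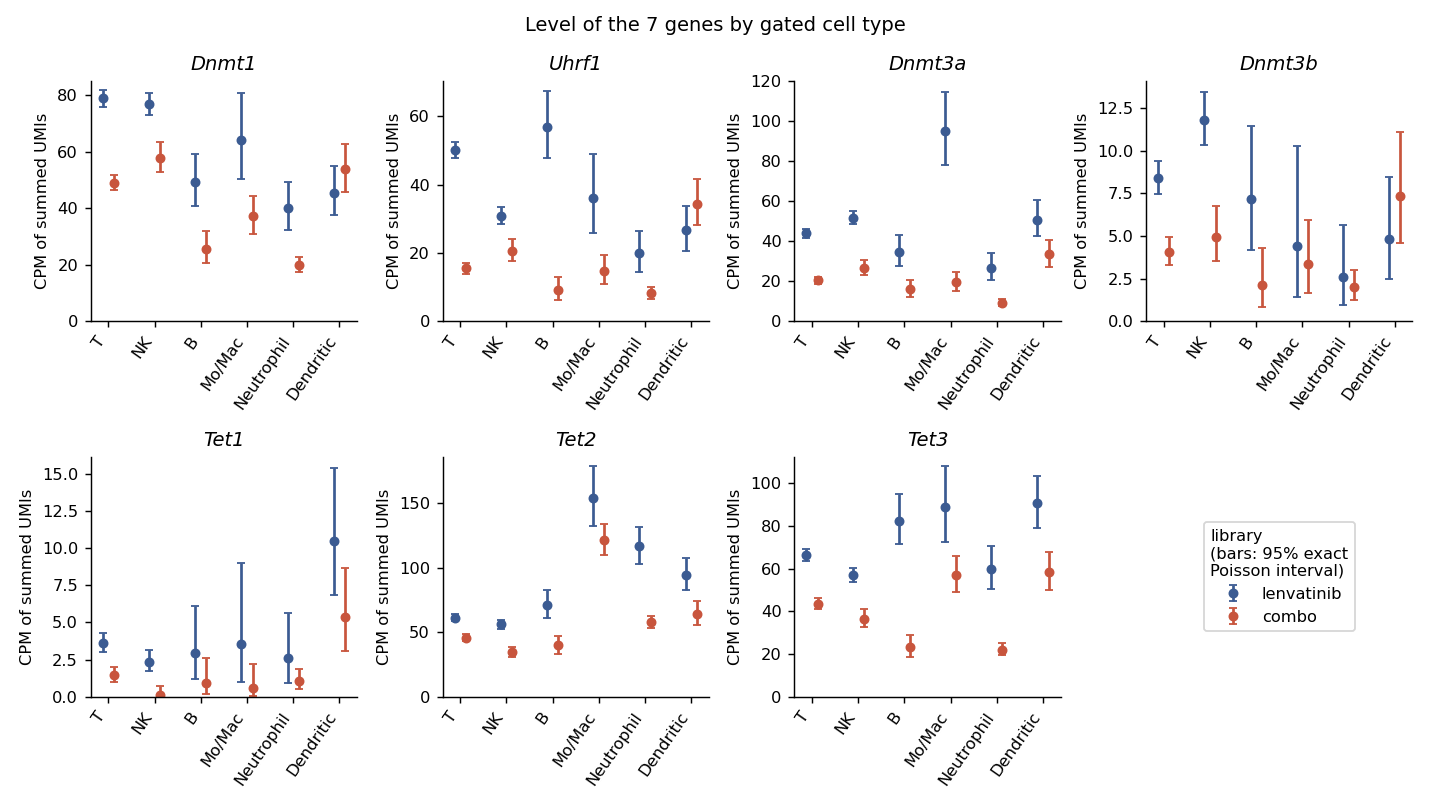
Level of each gene (CPM of summed UMIs, vertical axis, own scale per panel) in the 6 gated types of the lenvatinib (blue) and combo (red) libraries, with 95% exact Poisson intervals as bars. Dnmt3a is lower under combo in each of the 6 types, and the tallest lenvatinib points are Mo/Mac for Dnmt3a (94.99 CPM) and Tet2 (154 CPM).

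T-gated cells gave the largest share of the UMIs of each gene under lenvatinib among the 6 gates, but they also held 37.8% of all UMIs. The shares ran from 33.95% for Tet2 to 44.8% for Uhrf1. In T-gated cells, Uhrf1 stood at 50.1 CPM under lenvatinib and 15.4 CPM under combo (ratio 0.308, range 0.265 to 0.357). Dnmt1 stood at 78.9 and 49.1 CPM (0.622, 0.566 to 0.683). Dnmt3a stood at 43.9 and 20.4 CPM (0.464, 0.404 to 0.533). None of these 3 pairs of intervals overlapped. Dnmt3b, the other de novo enzyme, stood at 8.38 and 4.05 CPM (0.483, 0.350 to 0.662) and Tet1 at 3.62 and 1.45 CPM (0.3996, 0.234 to 0.665). Tet3 stood at 66.4 and 43.6 CPM (0.656, 0.593 to 0.726), and Tet2 was the gene nearest to 1, at 61.3 and 45.7 CPM (0.746, 0.674 to 0.825). Here too 6 of the 7 genes were at least 1.5-fold lower, beside 13.5% of 12102 genes tested, and the median ratio was 0.483 for the 7 genes and 0.901 for all tested genes. Relative to that median the 7 ratios ran from 0.342 for Uhrf1 to 0.828 for Tet2, and 4 were at least 1.5-fold lower, without Dnmt1 (0.690) and Tet3 (0.728). With each cell thinned to 2000 UMIs, a Dnmt3a UMI was seen in 8.92% of 4856 T-gated cells under lenvatinib and in 4.07% of 3688 under combo (23.4% and 10.9% before thinning, at median depths of 6019 and 5478 UMIs), and no gated type is known to lack the gene, so no background share could be set beside these.

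The T-gated cells of the libraries also differed in cycling. Cycling cells were those with a UMI of 2 or more of 10 mitosis genes, such as Mki67 and Top2a, and 842 of 5173 T-gated cells met this under lenvatinib (16.3%, exact binomial interval 15.3 to 17.3) and 178 of 3795 under combo (4.69%, 4.04 to 5.41). After thinning to 2000 UMIs the shares were 8.59% and 2.09%. The gates left out cells with UMIs of several gate genes, and many of those were cycling: 505 of 2327 under lenvatinib (21.7%) and 352 of 2667 under combo (13.2%). Their cycling cells were deep, with medians of 14909 and 19798 UMIs, so the cycling shares hold for cells of a single gate. The part of this loss in the difference was not tested. Dnmt1 was 166 CPM in cycling and 48.8 CPM in non-cycling T-gated cells under lenvatinib (3.40-fold, 3.06 to 3.78) and 134 and 40.7 CPM under combo (3.30-fold, 2.74 to 3.96). Uhrf1 was 145 and 17.1 CPM under lenvatinib (8.48-fold, 7.33 to 9.83) and 96.2 and 7.53 CPM under combo (12.8-fold, 9.53 to 17.2). These were the only members at least 2-fold higher in cycling cells, 2 of 7 tested under lenvatinib and 2 of 6 under combo, where 4.92% of 11163 and 5.57% of 10546 genes were. Dnmt3a differed little by state, at 44.2 and 43.8 CPM under lenvatinib (1.01-fold, 0.864 to 1.18) and 20.9 and 20.3 CPM under combo (1.03-fold, 0.684 to 1.51). The 3 Tet genes summed were lower in cycling cells, at 0.863-fold (0.787 to 0.947) under lenvatinib and 0.811-fold (0.661 to 0.989) under combo. The sizes depended on how cycling was called: with 2 S-phase genes in place of mitosis genes the combo ratios were 1.55 for Dnmt1 and 6.70 for Uhrf1, and that of Dnmt1 under lenvatinib 2.20, and with 1 mitosis gene the combo ratios were 1.76 and 7.28. The S-phase rule took in far more cells, 65.1% of T-gated cells under lenvatinib and 54.0% under combo. Cycling cells by mitosis genes were deeper, with a median of 9843 UMIs against 5592 under lenvatinib. S-phase-positive cells had a median of 7091 UMIs there.

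The cycling cells, 16.3% of T-gated cells and 25.8% of their UMIs under lenvatinib, held 74.6% of the Uhrf1 UMIs and 54.1% of the Dnmt1 UMIs, against 26.0% of the Dnmt3a, 23.6% of the Tet2 and 22.6% of the Tet3 UMIs. Under combo, 4.69% of the cells, with 8.89% of the UMIs, held 55.5% of the Uhrf1 and 24.4% of the Dnmt1 UMIs. Both levels also differed by the number of mitosis genes seen in a cell. Uhrf1 went from 13.3 CPM in the 2974 cells with none, through 24.1 CPM with 1 and 104 CPM with 2 to 4, to 234 CPM with 5 to 7, and was 160 CPM with 8 to 10, under lenvatinib. Dnmt1 over the same steps was 46.8, 52.4, 112, 217 and 213 CPM. Uhrf1 was thus highest in cells with an intermediate number of mitosis genes, and the intervals at 5 to 7 genes (210 to 261) and at 8 to 10 (147 to 174) did not overlap. Under combo the corresponding intervals, 116 to 203 from 26 cells and 85.2 to 143 from 32 cells, did. Tet2 was 62.5, 63.95, 69.8, 52.0 and 40.6 CPM over the same 5 steps under lenvatinib. Its interval at 8 to 10 genes (34.1 to 47.9) lay below that at none (58.9 to 66.4), whereas that at 5 to 7 (40.85 to 65.3) overlapped it. Tet3 was 70.3 CPM in cells with none and 48.4 CPM with 8 to 10. Median depth rose over these steps, from 5359.5 UMIs with none to 9916 with 5 to 7 and 15635.5 with 8 to 10, and its part was not tested. A separate list of 10 S-phase genes gave the highest Uhrf1 in cells with both sets. Under lenvatinib Uhrf1 was 154 CPM in 734 cells with both, 20.2 CPM in 2633 with S-phase genes alone and 9.86 CPM with neither. The 108 cells with mitosis genes alone had 8.58 CPM of Uhrf1 (2.79 to 20.03, 5 UMIs), an interval that held the value of cells with neither, and 54.9 CPM of Dnmt1 (37.6 to 77.6) against 173 CPM in cells with both. Under combo the 31 cells with mitosis genes alone held no Uhrf1 UMI, with an interval that reached 20.4 CPM, against 105 CPM in the 147 cells with both. Cells with mitosis genes alone were shallower than cells with both, with medians of 4949.5 against 10742 UMIs under lenvatinib and 5180 against 12094 under combo. Shallow cells show fewer S-phase genes, and the part of depth in these contrasts was not tested.

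**Figure D2:**
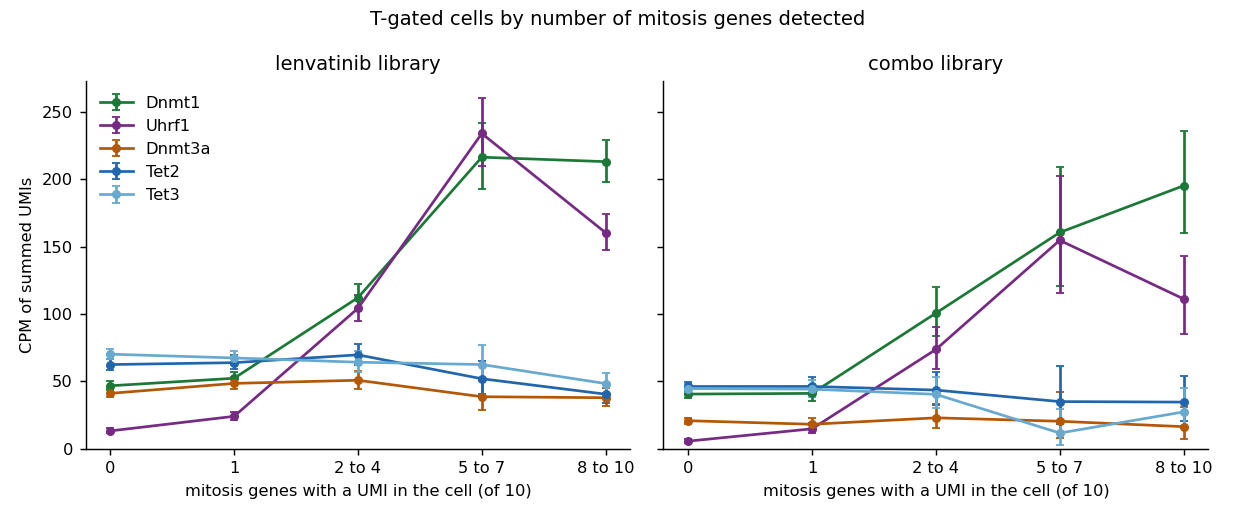
CPM of summed UMIs (vertical axis) of 5 genes in T-gated cells grouped by how many of 10 mitosis genes had a UMI (horizontal axis), lenvatinib library left and combo library right, with 95% exact Poisson intervals as bars. The Dnmt1 and Uhrf1 lines lie higher at 2 to 4 mitosis genes than at 1 in both libraries (112 against 52.4 CPM and 104 against 24.1 CPM under lenvatinib), and Uhrf1 is lower at 8 to 10 than at 5 to 7, whereas the Dnmt3a line stays between 37.9 and 50.9 CPM under lenvatinib and between 16.4 and 23.0 CPM under combo.

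The ratios of Dnmt1 and Uhrf1 moved with the cycling share, and those of Dnmt3a, Dnmt3b, Tet2 and Tet3 moved less. With the combo T-gated cells reweighted to the cycling makeup of the lenvatinib library, the ratio of Dnmt1 moved from 0.622 to 0.822 and that of Uhrf1 from 0.308 to 0.607. The same reweighting left Dnmt3a at 0.467, Dnmt3b at 0.476, Tet2 at 0.729 and Tet3 at 0.625. Within non-cycling T-gated cells, Dnmt3a was 43.8 and 20.3 CPM (0.464, 0.399 to 0.540), Tet3 69.3 and 44.6 CPM (0.644, 0.578 to 0.718) and Tet2 63.0 and 46.3 CPM (0.734, 0.657 to 0.819). Uhrf1 was 17.1 and 7.53 CPM there (0.440, 0.343 to 0.563), and Dnmt1 48.8 and 40.7 CPM (0.835, 0.740 to 0.942), a ratio that lay at the 38.0th percentile of all genes tested in that class. In non-cycling cells 5 of the 7 genes were at least 1.5-fold lower, beside 12% of 11657 genes. Within cycling T-gated cells 4 of the 6 genes with enough UMIs were, beside 15.3% of 9314 genes: Uhrf1 (0.663), Dnmt3a (0.473), Dnmt3b (0.521, range 0.177 to 1.33) and Tet3 (0.560). In the 1698 lenvatinib and 1713 combo cells with at most 1 gene of each cycle list, where libraries had near-equal median depths of 4296 and 4509 UMIs, Dnmt3a was still 48.3 and 20.9 CPM (0.433, 0.337 to 0.556), and Dnmt1 40.2 and 36.0 CPM (0.896, 0.715 to 1.12). Uhrf1 in those cells was 9.86 and 3.39 CPM from 78 and 29 UMIs (0.344, 0.1845 to 0.625), so its lower level under combo was also seen there.

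**Figure D3:**
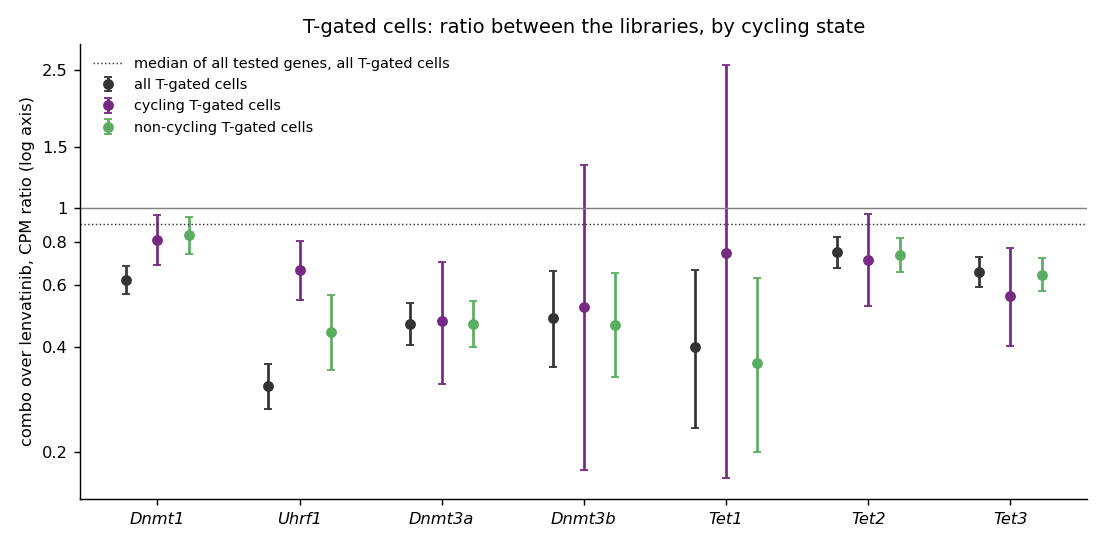
Ratio of CPM, combo over lenvatinib (log vertical axis), of each gene in all (black), cycling (purple) and non-cycling (green) T-gated cells, with bars for the range of the ratio, a solid line at 1 and a dotted line at the median of all tested genes (0.901). The black Uhrf1 point (0.308) lies below both of its state points (0.663 and 0.440), while the 3 Dnmt3a points lie together near 0.464.

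**Figure D4:**
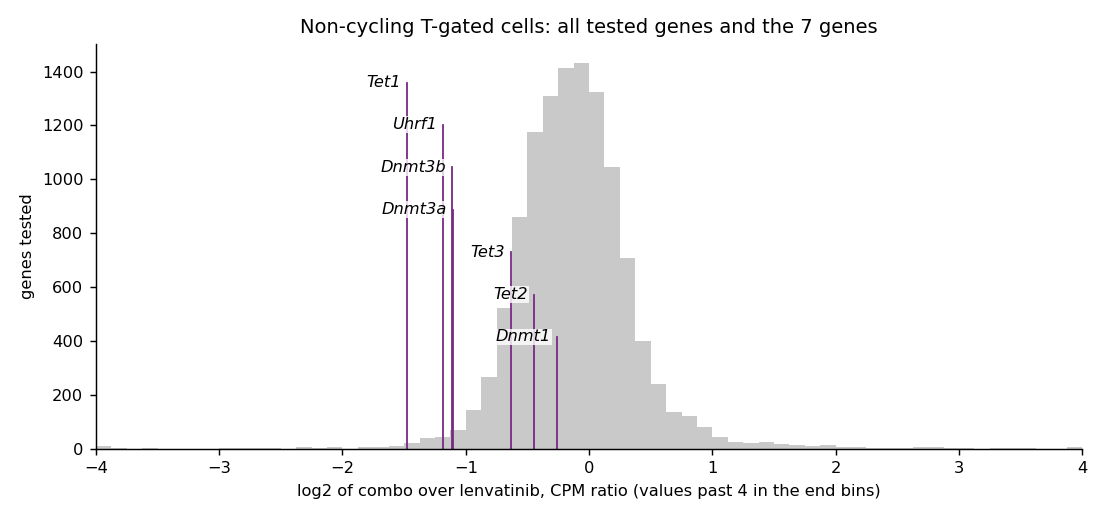
Number of genes tested (vertical axis) by log2 ratio of combo over lenvatinib (horizontal axis) in non-cycling T-gated cells, with a purple line for each of the 7 genes. Tet1, Uhrf1, Dnmt3b and Dnmt3a lie in the lower tail (percentiles 0.661, 1.43, 1.57 and 1.60) and Dnmt1 lies within the bulk.

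Among T-cell sub-gates, Dnmt3a stood out in Foxp3+ cells, the regulatory T cells, at 76.0 CPM under lenvatinib (interval 65.2 to 88.2, 388 cells) against 41.4 CPM in Cd8a+ cells (38.8 to 44.2) and 45.4 CPM in Cd4+ Foxp3- cells (36.1 to 56.5). Under combo the Foxp3+ value was 34.4 CPM from 11 UMIs in 57 cells (17.2 to 61.5), and its interval overlapped those of Cd8a+ and Cd4+ Foxp3- cells. Non-cycling Cd8a+ cells with Pdcd1, which encodes PD-1, had 55.1 CPM of Dnmt3a under lenvatinib and 18.8 CPM under combo (0.342, 0.199 to 0.581). Tet3 was 105 CPM in non-cycling Cd4+ Foxp3- cells under lenvatinib and 63.8 CPM under combo (0.606, 0.429 to 0.856), above the 64.1 and 40.1 CPM of non-cycling Cd8a+ cells in each library with no overlap of intervals. Tet2 in the same pair was 79.8 and 67.8 CPM against 60.5 and 43.3 CPM, and its ratio in the Cd4+ Foxp3- cells had a range that held 1 (0.850, 0.590 to 1.23). Non-cycling Foxp3+ cells had 81.4 and 72.7 CPM of Tet3 (131 and 21 UMIs). Their Tet2 was 93.8 and 51.9 CPM (151 and 15 UMIs), so these levels were not particular to Cd4+ Foxp3- cells. Uhrf1 in Foxp3+ cells had 102 UMIs under lenvatinib and 1 under combo (0.0701, 0.00146 to 0.479). Of these cells 57 of 388 were cycling under lenvatinib and 4 of 57 under combo. The non-cycling ones had 24 Uhrf1 UMIs in 331 lenvatinib cells and 0 in 53 combo cells.

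**Figure D5:**
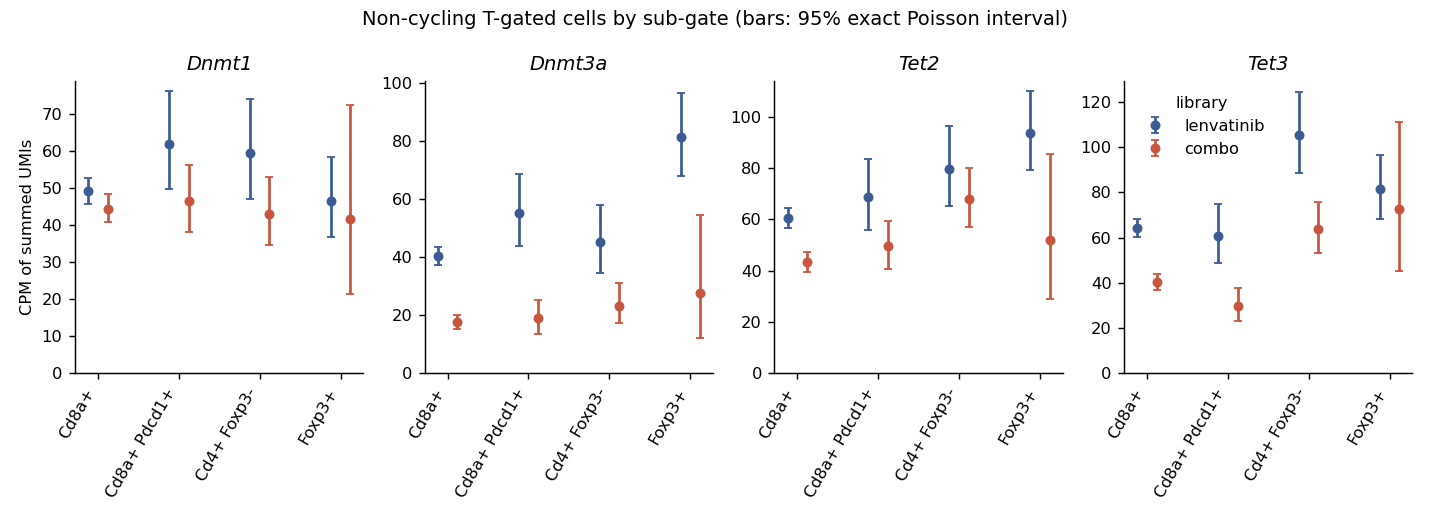
CPM of summed UMIs (vertical axis) of 4 genes in non-cycling T-gated cells by sub-gate for the lenvatinib (blue) and combo (red) libraries, with 95% exact Poisson intervals; the first sub-gate, Cd8a+, contains the second. The Dnmt3a points under lenvatinib run from 40.3 CPM in Cd8a+ cells to 81.4 CPM in Foxp3+ cells, and the combo points lie between 17.5 and 27.7 CPM.

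In NK-gated cells 4 of 6 tested genes were at least 1.5-fold lower, beside 13.3% of 10598 genes. Dnmt3a stood at 51.7 CPM under lenvatinib and 26.7 CPM under combo (0.516, 0.421 to 0.629), Dnmt3b at 11.8 and 4.95 CPM (0.419, 0.261 to 0.655), Tet2 at 56.0 and 34.5 CPM (0.617, 0.514 to 0.739) and Tet3 at 57.0 and 36.6 CPM (0.642, 0.537 to 0.765). The cycling share of NK-gated cells differed as well. Dnmt1 was 76.8 and 57.9 CPM (0.754, 0.652 to 0.870) and Uhrf1 30.9 and 20.6 CPM (0.667, 0.524 to 0.845) over all NK-gated cells, and 15.7% of them were cycling under lenvatinib and 5.51% under combo. In cycling NK-gated cells the pair had ratios of 1.09 (0.849 to 1.38) and 1.11 (0.833 to 1.47), ranges that held 1, from 394 lenvatinib and 54 combo cells with median depths of 10391 and 17742 UMIs. In non-cycling NK-gated cells Dnmt1 was 58.95 and 44.7 CPM (0.759, 0.632 to 0.909), outside 1, and Uhrf1 10.1 and 7.46 CPM (0.738, 0.467 to 1.15). Tet1 had 45 UMIs in NK-gated cells under lenvatinib and 1 under combo (0.0537, 0.00102 to 0.410).

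In B-gated cells Uhrf1 stood at 56.8 CPM under lenvatinib and 8.97 CPM under combo (0.158, 0.0900 to 0.269). Under lenvatinib 119 of its 135 UMIs came from 38 cycling cells, a class below the limit of 50 cells and looked at after its values were seen, and 16 B-gated cells were cycling under combo. Tet3 differed without such a concentration, at 82.5 and 23.3 CPM in all B-gated cells (0.283, 0.194 to 0.408) and 94.3 and 24.6 CPM in non-cycling ones (0.261, 0.177 to 0.383). Dnmt3a was 34.5 and 15.8 CPM (0.459, 0.277 to 0.755). All 5 tested genes were at least 1.5-fold lower, but so were 37.8% of 7475 genes in these cells. S100a8 was 181 CPM in B-gated cells under lenvatinib and 5050 CPM under combo.

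Among Mo/Mac-gated cells, Dnmt3a had its highest level of any gated type under lenvatinib, 94.99 CPM (77.9 to 115), and stood at 19.4 CPM under combo (0.204, 0.130 to 0.318). Much of the lenvatinib signal lay in the cells with at least 3 UMIs of the C1q genes, which mark tissue macrophages: 45 such cells, again below the limit and examined afterwards, held 70 of the 108 UMIs (286 CPM, 223 to 361), and 1 cell alone held 18. The 40 such cells under combo held 18 UMIs (56.5 CPM, 33.5 to 89.2), and the remaining Mo/Mac-gated cells gave 42.6 and 15.4 CPM (0.362, 0.193 to 0.683). Tet2 was highest in Mo/Mac-gated cells in both libraries, at 154 CPM (132 to 179) and 121 CPM (110 to 134), with no overlap with the next type, and its ratio had a range that held 1 (0.788, 0.614 to 1.01). Of 5 tested genes 4 were at least 1.5-fold lower, beside 18.4% of 7221 genes.

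Neutrophil-gated cells had the lowest Dnmt1, Uhrf1 and Dnmt3a of the 6 types in both libraries, though the intervals of several neighbours in these orders overlapped. Dnmt3a was 26.7 CPM under lenvatinib and 9.05 CPM under combo (0.339, 0.214 to 0.539), Tet2 116 and 58.0 CPM (0.498, 0.408 to 0.610) and Tet3 59.9 and 22.1 CPM (0.368, 0.273 to 0.498). All 5 tested genes were at least 1.5-fold lower, beside 47.0% of 8330 genes in this type, a background against which the count says little. Tet2, Tet3 and Dnmt3a each differed with granule genes among neutrophils of both libraries. Cells with few UMIs of secondary granule genes, which are made before neutrophils mature, had 141 and 90.2 CPM of Tet2, and those with at least 10 such UMIs had 40.5 and 25.3 CPM. Tet3 was 71.9 and 36.7 CPM in the granule-poor and 22.9 and 7.22 CPM in the granule-rich cells, and Dnmt3a 32.5 and 13.1 CPM against 8.81 and 4.94 CPM. The granule-rich cells were deeper, with medians of 7942 and 13405 UMIs against 2432.5 and 3807, and the limit of 10 UMIs favors deep cells, whose part in these levels was not tested. The granule-rich cells made up 55 of 681 neutrophil-gated cells under lenvatinib and 364 of 1468 under combo. Within the granule-poor cells the Tet2 ratio was 0.640 (0.516 to 0.796), compared with 0.498 over all neutrophil-gated cells.

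Dendritic-gated cells were the type in which neither Dnmt1 nor Uhrf1 had a lower CPM under combo over all cells of the gate. Dnmt1 stood at 45.6 CPM under lenvatinib and 53.8 CPM under combo (1.18, 0.836 to 1.67), and Uhrf1 at 26.6 and 34.4 CPM (1.29, 0.830 to 2.03). Both ranges held 1, and 16.1% of dendritic-gated cells were cycling in each library. In non-cycling dendritic-gated cells the direction was the same, with ratios of 1.17 (0.719 to 1.92) for Dnmt1 and 2.61 (0.97 to 7.67) for Uhrf1. In the dendritic-gated cells with at most 1 gene of each cycle list the direction differed, with Dnmt1 at 35.0 and 12.8 CPM from 29 and 11 UMIs (0.367, 0.128 to 0.981) and Uhrf1 at 4 and 3 UMIs. Dnmt3a was 50.8 and 33.4 CPM (0.658, 0.450 to 0.960), Tet2 94.3 and 64.2 CPM (0.680, 0.517 to 0.894) and Tet3 90.7 and 58.5 CPM (0.645, 0.485 to 0.856). Of 5 tested genes 2 were at least 1.5-fold lower, beside 13.2% of 7998 genes. Tet1 had its highest level in this type in both libraries, 10.5 CPM from 26 UMIs (6.85 to 15.4) and 5.35 CPM from 16 (3.06 to 8.68), above the interval of the next type, T-gated cells, each time. Among cells with Xcr1 or Clec9a, genes expressed in cross-presenting dendritic cells, Dnmt3a was 43.2 and 15.9 CPM, and in Siglech+ cells 61.9 and 43.1 CPM. These sub-gates were not exclusive. Under lenvatinib they held 112 and 149 of the 249 dendritic-gated cells, so some cells counted in both and neither sub-gate stands for a separate type.

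Other genes of the pathway were read in T-gated cells, where 13.5% of tested genes were at least 1.5-fold lower and 5.85% at least 1.5-fold higher. Of 6 partners of maintenance methylation 4 were at least 1.5-fold lower under combo: Pclaf, a PCNA-binding protein that UHRF1 modifies, at 130 and 44.9 CPM (0.345), Usp7, which removes ubiquitin from DNMT1, at 109 and 63.1 CPM (0.582), and the remodeling pair Hells at 42.6 and 26.8 CPM (0.629) and Cdca7 at 19.2 and 12.5 CPM (0.654). Pclaf, Hells and Cdca7 were over 3-fold higher in cycling cells of each library, and within cycling cells their ratios between libraries were 0.957, 1.06 and 1.17. Within non-cycling cells Pclaf was 8.48 and 4.44 CPM (0.524, 0.374 to 0.731), Hells had a ratio of 0.844 (0.706 to 1.01) and Cdca7 one of 0.767 (0.596 to 0.985). Usp7 was like Dnmt3a in this respect: it was 0.913-fold in cycling against non-cycling cells in both libraries and kept a ratio of 0.573 within each state. None of 8 methyl-CpG readers passed 1.5-fold in either direction (median 0.926), nor did any of 7 genes that supply the cofactors of these enzymes or clear an inhibitor of TET, such as Mat2a (0.821) and Idh2 (1.06). Of 11 genes of oxidized-base removal and TET partners, Ogt, whose product binds TET enzymes, was lower (230 and 152 CPM, 0.659) and Gadd45a, linked to active demethylation, was higher (20.3 and 33.6 CPM, 1.66). All 10 mitosis genes (median 0.303) and 7 of 10 S-phase genes (median 0.652) were at least 1.5-fold lower.

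Dnmt3l, the catalytically inactive cofactor of the de novo enzymes, was higher under combo over all cells, with 22 UMIs under lenvatinib and 110 under combo. It was largely a neutrophil signal in the gated cells: 7 and 46 of its UMIs were in neutrophil-gated cells (3.02 CPM, 1.21 to 6.22, and 4.34 CPM, 3.18 to 5.78), where the intervals overlapped, and T-gated cells held 3 and 0. In the granule-rich neutrophils it was 8.81 CPM from 5 UMIs and 7.03 CPM from 37.

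The genes whose CPM was most like each member over the 12 combinations of 6 types and 2 libraries were listed for the 5 members that reached 20 CPM, by Pearson correlation of log2 CPM over 7950 genes. Hltf led for Dnmt1 (r = 0.974), Pclaf for Uhrf1 (0.948), Ulk2 for Dnmt3a (0.935), Tor1aip1 for Tet2 (0.970) and Ppp3r1 for Tet3 (0.976). The 12 points share 2 libraries and their depths, and these values only order the genes.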

How the data were processed

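Live CD45+ tumor cells were profiled by droplet 3′ scRNA sequencing in 2 libraries, 1 per condition. The deposited matrices hold the authors' UMI counts for each gene in each barcode, without normalization, mapped to mm10; per the labels Cell Ranger 5.0.1 was used, whereas the matrix headers name version 6.0.1. Every barcode had at least 500 UMIs. The 7 genes, lists and motifs were chosen with earlier results of these data known.

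Cells were kept at the limits the study names (6000 genes, 25% mitochondrial UMIs), which left a median of 5541 UMIs per cell under lenvatinib and 5754 under combo. Types, cycling and S-phase states were called from single genes or lists of 10 genes. Classes under 50 cells got no value, except where stated. Counts were summed per class and given as CPM with exact Poisson 95% intervals (scipy 1.17.1), and shares with exact Clopper-Pearson intervals. Genes with at least 50 UMIs over both libraries in a class formed the background. For shares, cells were thinned to 2000 UMIs and shallower cells left out (317 lenvatinib and 107 combo T-gated cells). Doublets were called by Scrublet in scanpy 1.11.5 at an expected 6% (575 and 320 cells) and removed only in an alternative. Cells are not replicates, so no p-value was computed. The ratio of CPM with its range was checked on simulated counts, and thinning on barcodes of the lenvatinib library. The other calculations were not checked in this way. Granule-rich neutrophils had at least 10 UMIs of Camp, Ltf and Ngp. Genes named were the 7 members, the fixed lists and the 3 genes most like each member, of which the first is given.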

Additional observations from a re-analysis of the deposited data

Results flagged for a closer look

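Dnmt1 and Uhrf1 in dendritic-gated cells ran opposite to T-gated cells, with combo to lenvatinib ratios of 1.18 and 1.29 against 0.622 and 0.308. With 1 library per condition the difference between the types was not tested, and the dendritic ranges (0.836 to 1.67 and 0.830 to 2.03) held 1. In dendritic-gated cells with at most 1 gene of each cycle list Dnmt1 was lower under combo (0.367, 0.128 to 0.981), from 29 and 11 UMIs. The opposite direction did not hold in those cells. It was kept in the non-cycling dendritic-gated cells, with ratios of 1.17 (0.719 to 1.92) for Dnmt1 and 2.61 (0.97 to 7.67) for Uhrf1, ranges that held 1. The cycling share of dendritic-gated cells was 16.1% in both libraries, whereas that of T-gated cells was 16.3% under lenvatinib and 4.69% under combo.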

How the results depend on the processing

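No paired analysis was possible because each condition had 1 library. Of 171 recomputed values for 20 ratios under 14 settings, 136 moved by less than their counting range, 34 by more, and 1 changed direction: relative to the median tested gene, an alternative chosen after seeing the data, Tet2 in all cells was 1.02. The same scaling gave 0.691 for Dnmt1, 0.474 for Uhrf1, 0.483 for Dnmt3a and 0.684 for Tet3 in all cells, and 0.690 for Dnmt1, 0.828 for Tet2 and 0.728 for Tet3 in T-gated cells. In all cells, no cell filter gave 0.638 for Dnmt1 and 0.463 for Uhrf1, and a limit of 5000 genes and 10% mitochondrial UMIs gave 0.544, 0.335 and, for Tet2, 0.821. The 6000-gene limit removed 37 lenvatinib and 54 combo cells, of which 36 and 52 were cycling. At the lenvatinib makeup of types and cycling states the ratios in all cells were 0.788 for Dnmt1, 0.653 for Uhrf1, 0.457 for Dnmt3a and 0.765 for Tet2, and in T-gated cells 0.822 for Dnmt1 and 0.607 for Uhrf1. Any cell with a Cd3e UMI gave 0.358 for Uhrf1. For cycling over non-cycling T-gated cells under lenvatinib, Dnmt1 was 2.32 with 1 mitosis gene, 3.81 with 3 and 2.20 with S-phase genes, Uhrf1 was 6.33 with 1 gene, 6.397 with S-phase genes and 6.398 after thinning, and the Tet sum 0.784 with 3 genes and 0.753 after thinning. Under combo, Dnmt1 was 1.76, 4.28 and 1.55 by the same rules and 4.55 after thinning, Uhrf1 7.28 with 1 gene and 6.70 with S-phase genes, and the Tet sum 0.658 after thinning. The cause of these shifts was not tested. Removing called doublets and leaving mitochondrial, ribosomal and hemoglobin genes out of the total moved none of the 20 ratios past its range. Depth limited Tet1 and Dnmt3b in particular, and mouse-to-mouse spread could not be measured.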
